A study of Mus musculus with 4 samples.

Results

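The cytosolic ribosomal protein genes of mouse TKPTS cells were described, as a set of 83 genes of 22063 genes listed. Members were chosen by symbol alone. A symbol made of Rpl or Rps, a number and at most a short suffix was taken, together with *Rpsa*, *Rplp0*, *Rplp1* and *Rplp2*, and the Rps6k kinases and the pseudogene symbols ending in -ps and a number were left out. The set holds 51 genes named for the large (60S) subunit and 32 named for the small (40S) subunit.

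The line TKPTS (TKPT in the labels) was derived from epithelium of the mouse proximal tubule, the kidney segment that reabsorbs most of the filtrate. All 4 libraries came from cells kept for 24 h in 1% O2 and 5% CO2 and then for 12 h in normal oxygen, and cells were transfected with siRNA at 60% density. The control group (si-NC, scrambled siRNA, replicates 2 and 3) and the si-*Itgb6* group (siRNA against *Itgb6*, replicates 1 and 3) had 2 libraries each, and no normoxic or untransfected library was part of the comparison. The comparison asks whether siRNA against *Itgb6*, the gene of the β6 subunit of integrin αvβ6, changed gene expression in the injured tubular cells. The labels do not say whether replicates were separate cultures, so p-values measure only the spread between these libraries, which may be technical.

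The ribosome is built from rRNA and about one copy each of the ribosomal proteins, and their mRNAs are among the most abundant of a growing cell. Most of these mRNAs begin with a 5′ terminal oligopyrimidine (TOP) tract, through which mTOR signalling and the RNA-binding protein LARP1 control their translation. Some members also act outside the ribosome, such as RPL5 and RPL11, which bind MDM2 when ribosome assembly is disturbed.

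The targeted gene was checked first. *Itgb6* had 285 and 284 estimated counts in the si-NC libraries and 279 and 260 in the libraries labelled si-*Itgb6*. Its levels overlapped between groups, with a log2 fold change of -0.01 (95% interval -0.27 to 0.26, adjusted p = 0.991 in the quasi-likelihood fit of edgeR). No fall of the target mRNA was thus seen in the libraries labelled si-*Itgb6*, and the mRNA did not bear out the labels. The interval leaves out a fall beyond 0.27 on the log2 scale. The paper states that the efficiency of this siRNA was checked by both qPCR and western blot. Its supplement shows the western blot, with lower αvβ6 protein. Protein was not measured in these libraries. Every direction below is that of the libraries labelled si-*Itgb6* against those labelled si-NC. Library totals ranged from 15435074 to 17220281 counts. Among markers of the kidney tubule, *Pax8* (4682 to 5884 counts) and *Cdh16* were well detected. Of markers of the proximal segment, *Slc34a1* was at 0, *Hnf4a* at 0 to 1, *Lrp2* at 2 to 17 and *Cubn* at 30 to 45 counts, while *Aqp1*, given below, was above these. Of markers of other cell types, *Ptprc* (0 to 6 counts), *Adgre1* (0 to 1) and *Pecam1* (0 to 7) were near 0. Others were detected, with *Cdh5* at 40 to 66 and *Pdgfrb* at 35 to 55 counts, and the macrophage-associated *Cd68* (1534 to 1968) and *Csf1r* (365 to 468) well above 0. The summed counts of the 4 leukocyte markers were 2156 and 2437 in si-NC and 1952 and 1989 in si-*Itgb6*. In the same comparison the water channel gene *Aqp1* was higher, at 387 and 477 against 601 and 633 counts (log2 fold change 0.59, adjusted p = 0.000617, edgeR), and the keratin gene *Krt8* lower (log2 fold change -0.20, adjusted p = 0.00881, edgeR). The part of these markers in the members' values was not tested.

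Ribosomal protein mRNAs made up a large part of every library. In si-NC replicates 2 and 3 members took 7.74% and 7.80% of the total, and in si-*Itgb6* replicates 1 and 3 they took 7.80% and 8.16%. By FPKM, the value per length of transcript, they took 17.3%, 17.4%, 17.5% and 18.0% in the same order. Of the 100 genes with the highest mean FPKM, 50 were members. After the filter on low counts 80 of 83 members were tested, with 476 to 65319 counts in a library. The other 3 were paralogs of restricted expression: *Rpl10l* and *Rpl39l* were listed at 0 counts in each library, and *Rpl3l* at 0 or 1 count.

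Levels spread over 71.7-fold from the highest to the lowest tested member, with a median of 1112 FPKM, and 67 members were over 500 FPKM. The highest was *Rpl23a*, a protein of the large subunit near the tunnel exit, at 3531 and 3517 FPKM in si-NC and 3665 and 3892 FPKM in the libraries labelled si-*Itgb6*. *Rps2*, a small subunit protein at the mRNA entry, had 3608, 3639, 3534 and 3707 FPKM in the same order. The ranges of these 2 genes over the libraries overlapped, so their order was not resolved. *Rplp0*, the base of the P-stalk that recruits translation factors, followed at 2770 to 2895 FPKM, then *Rpl26* at 2646 to 2760 FPKM and *Rps24* at 2493 to 2868 FPKM. The large and small subunit members had similar medians, at 1066 and 1137 FPKM.

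**Figure D1:**
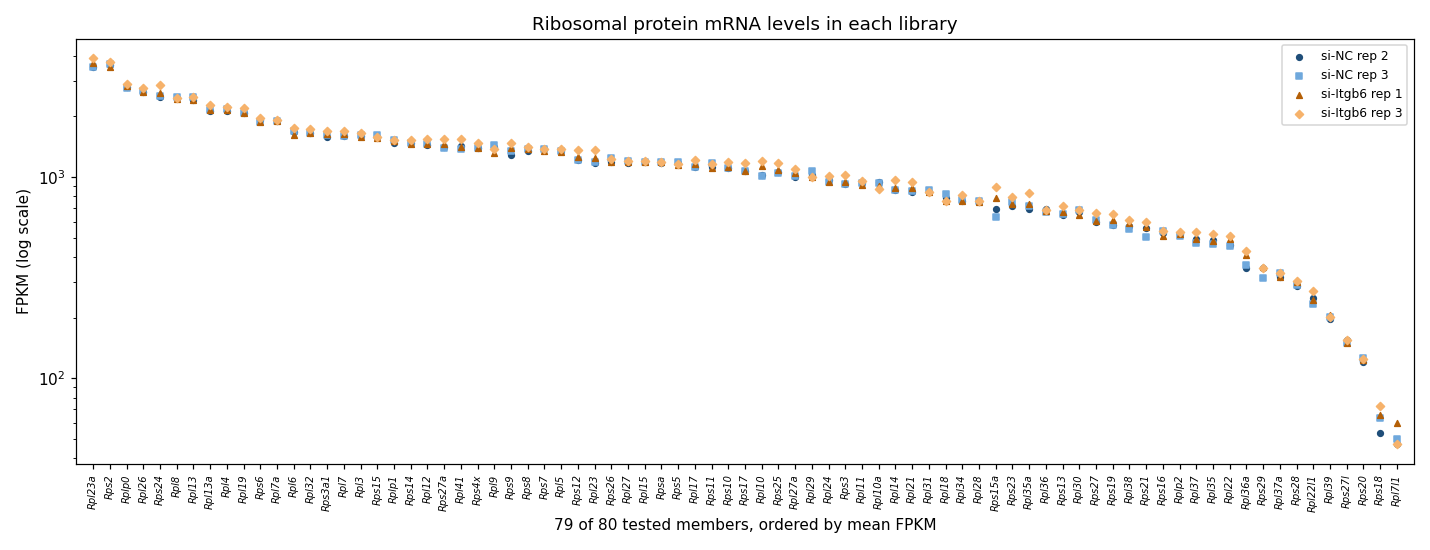
Level of 79 of the 80 tested members in each of the 4 libraries, in FPKM on a log axis, ordered by mean FPKM with 1 point per library. Most members lie over 500 FPKM with library points close together, and the lowest are *Rps18* and *Rpl7l1*.

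The lowest tested member was *Rpl7l1*, a paralog of *Rpl7*, at 47.0 and 49.7 FPKM in si-NC and 59.7 and 47.4 FPKM in si-*Itgb6*, while *Rpl7* had 1590 to 1695 FPKM. The length implied by its counts and FPKM differed 1.31-fold between libraries, so its FPKM and counts did not move together. *Rps20*, a small subunit protein, had only 121 to 126 FPKM but 7045 to 8014 counts. Its values imply a length of 3706 bases, equal to its principal transcript in GENCODE vM21, and by counts at a common library size it ranked 60 of the 80 members rather than 78. *Rps27l*, the paralog of *Rps27*, had 150 to 155 FPKM against 594 to 659 FPKM for *Rps27*. *Rpl39*, a small protein lining the exit tunnel, had 198 to 206 FPKM. *Rpl22* had 452 to 507 FPKM and its paralog *Rpl22l1* had 234 to 272 FPKM. *Rpl3*, which shapes the peptidyl transferase centre, had 1581 to 1646 FPKM.

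The second lowest member, *Rps18*, is a core protein of the head of the small subunit. In the order of si-NC replicates 2 and 3 and then si-*Itgb6* replicates 1 and 3, it was assigned 476, 595, 557 and 669 estimated counts. A listed copy, *Rps18-ps6* on chromosome 13, had 12235, 12883, 11580 and 13977 counts. Of the summed counts of *Rps18*, *Rps18-ps6* and *Rps18-ps5*, between 3.49% and 4.29% were assigned to *Rps18* itself. The coding sequence of *Rps18* (ENSMUSG00000008668, chr17:33951999-33956001, minus strand, GRCm38) is 459 bases long and differed from that of *Rps18-ps6* at 4 bases with no gap, and from that of *Rps18-ps5* at 3 bases. A 90-base stretch from coding position 282 to 371 shows how alike the transcripts are, with the 2 differing bases in capitals:
*Rps18*: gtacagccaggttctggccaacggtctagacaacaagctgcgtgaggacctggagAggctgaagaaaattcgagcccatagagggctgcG
*Rps18-ps6*: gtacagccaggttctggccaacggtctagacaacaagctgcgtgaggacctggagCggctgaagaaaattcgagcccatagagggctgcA

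*Rpl10*, a large subunit protein near the peptidyl transferase centre that is needed for joining of the subunits, had a listed copy with identical coding sequence. Its gene (ENSMUSG00000008682, chrX:74270812-74273135, plus strand, GRCm38) and *Rpl10-ps3* on chromosome 9 share all 645 coding bases with 0 differences, of which the first 90 are shown:
*Rpl10* and *Rpl10-ps3*: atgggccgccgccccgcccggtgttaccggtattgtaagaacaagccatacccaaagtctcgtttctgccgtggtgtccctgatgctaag

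*Rpl10* was assigned 11496, 12195, 12097 and 13873 counts and *Rpl10-ps3* had 12158, 13196, 11328 and 11668 counts. The share of their sum assigned to *Rpl10* was 48.6% and 48.0% in si-NC and 51.6% and 54.3% in the libraries labelled si-*Itgb6*, so the split between the locus and its copy was not constant. Reads that lie within sequence shared by such a pair cannot be told apart, and how many reads hold a differing base was not computed. Of the 31-base words of the *Rpl10* transcript, 92.3% also occur in *Rpl10-ps3*. In all, 26 members shared at least 1 such word with another listed gene and 7 shared over 50%. Counts were not whole numbers in at least 1 library for 14 members and 69 members had whole counts throughout. The annotation is GENCODE vM21, and the build the authors used is not given in the sources used here.

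**Figure D2:**
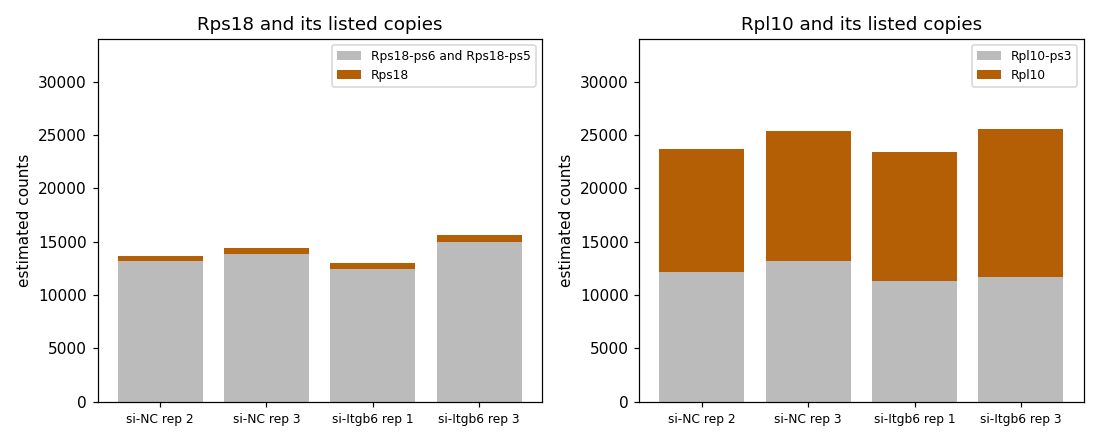
Estimated counts per library assigned to *Rps18* and *Rpl10* (orange) and to their listed copies (grey), stacked from 0. *Rps18* receives between 3.49% and 4.29% of its sum, and the share of *Rpl10* is 48.0% to 48.6% in si-NC and 51.6% to 54.3% in si-*Itgb6*.

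Between groups, 4 members were higher and 0 lower in libraries labelled si-*Itgb6* (adjusted p under 0.05 in the quasi-likelihood fit of edgeR). Over all 11727 genes tested, 4.62% were called, with 2.11% higher and 2.52% lower. The 4 were *Rpl10*, *Rpl36a*, *Rpl21* and *Rps15a*, each with both si-*Itgb6* libraries over both si-NC libraries. Without adjustment, 18 members had p under 0.05 and were higher and 0 were lower, while 8.8% and 9.62% of all genes tested passed in these directions. By the other tools run, DESeq2 called 5 members higher (2.53% of all genes with an adjusted p) and the likelihood ratio test 4, and each called 0 lower, while limma on log2(FPKM + 1) called 0 in either direction. Under the study's thresholds, an unadjusted p under 0.05 with a fold change over 1.2, only *Rps18* passed, where 4.37% of all genes tested passed as higher and 5.2% as lower.

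*Rpl10* had 705 and 706 CPM (counts scaled to a common library size after TMM normalization) in si-NC and 782 and 843 CPM in the libraries labelled si-*Itgb6*, a log2 fold change of 0.20 (SE 0.05, adjusted p = 0.00987). With the counts of *Rpl10-ps3* added, the 4 values were 1450, 1470, 1513 and 1551 CPM, with a log2 fold change of 0.07 (SE 0.04, adjusted p = 0.412 by edgeR). The call for *Rpl10* thus ended when the locus and its identical copy were counted together.

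*Rpl36a*, a large subunit protein at the tRNA exit site (ENSMUSG00000079435, chrX:134585654-134588062), had 169 and 175 CPM in si-NC and 198 and 209 CPM in si-*Itgb6*. It had the largest change among the 4 called members, with a log2 fold change of 0.24 (SE 0.06, adjusted p = 0.0108, edgeR). Its counts were whole numbers in every library. Of its 31-base words, 69.5% also occurred in 2 other listed genes. Most of these, 66.0%, were shared with *Rpl36a-ps1*, which was listed at 0 counts in every library. The counts of the other gene were not compared with those of *Rpl36a*.

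*Rpl21* (ENSMUSG00000041453, chr5:146832890-146837032) had 1079 and 1090 CPM in si-NC and 1146 and 1299 CPM in si-*Itgb6*, a log2 fold change of 0.17 (SE 0.05, adjusted p = 0.039, edgeR). It shared 38.1% of its words with *BC004004*, a listed gene of 814 to 960 counts. *Rps15a* (ENSMUSG00000008683, chr7:118104372-118116188), a small subunit protein, had 467 and 476 CPM in si-NC and 505 and 560 CPM in si-*Itgb6*. This was a log2 fold change of 0.18 (SE 0.05, adjusted p = 0.0442, edgeR), and its FPKM were 697 and 630 in si-NC against 787 and 888 in si-*Itgb6*. The length implied by its counts and FPKM was 675 and 757 bases in si-NC and 644 and 622 in si-*Itgb6*, so part of the FPKM difference lies in the length.

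*Rps18* had 29.2 and 34.5 CPM in si-NC and 36.0 and 40.6 CPM in si-*Itgb6*, a log2 fold change of 0.27 (SE 0.10, unadjusted p = 0.0143, adjusted p = 0.138, edgeR). With its listed copies added the values were 836, 837, 839 and 949 CPM, and the log2 fold change was 0.10 (SE 0.05, adjusted p = 0.304, edgeR). After the sum, si-*Itgb6* replicate 1 lay within 4 CPM of both si-NC libraries, so the difference rested on replicate 3. For *Rps18* alone the log2 fold change was 0.15 without si-NC replicate 2. Over all 14 alternatives, the sum with copies included, the value ran from 0.10 to 0.40.

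**Figure D3:**
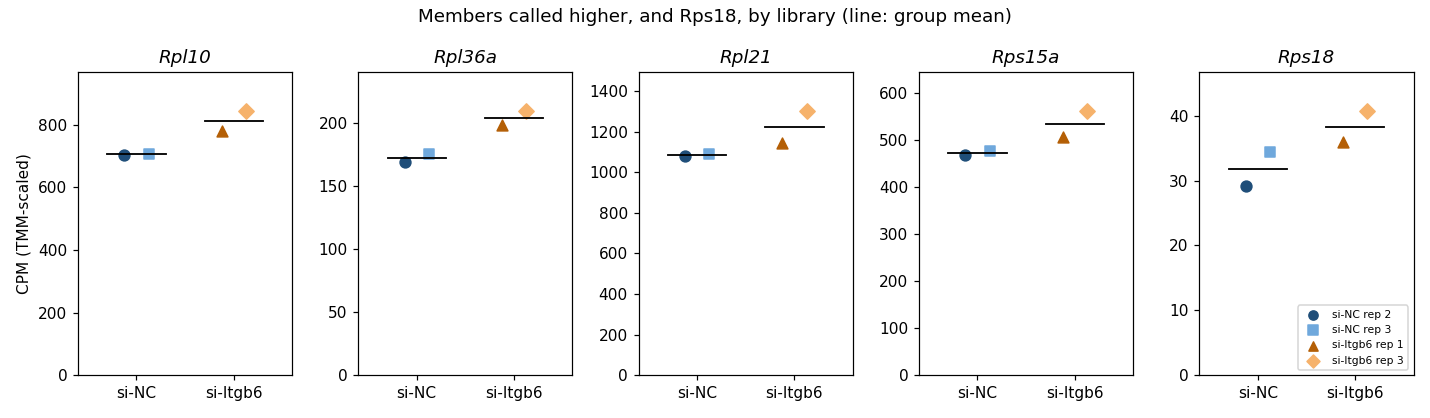
TMM-scaled CPM of the 4 called members and of *Rps18* in each library, with axes from 0 and a line at each group mean. In each panel both si-*Itgb6* libraries lie over both si-NC libraries, and si-*Itgb6* replicate 3 is the highest.

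The calls rested on few libraries. Leaving out si-*Itgb6* replicate 1 gave 30 members called higher, where 3.07% of all genes tested were called higher, and leaving out si-*Itgb6* replicate 3 gave only *Rpl10*, where 2.21% were. Without si-NC replicate 2, and likewise without replicate 3, 0 members were called, where only 0.0584% and 0.902% of all genes tested were called higher. The log2 fold changes of the 4 stayed between 0.16 and 0.27 in these 2 fits, at 0.20 and 0.21 for *Rpl10*. Without si-*Itgb6* replicate 3 the values were 0.15 for *Rpl10*, 0.21 for *Rpl36a*, 0.08 for *Rpl21* and 0.10 for *Rps15a*, and without replicate 1 they were 0.26, 0.28, 0.26 and 0.25. With the trends of GC content and transcript length removed from each library, none of the 4 was called, with adjusted p of 0.137 for *Rpl10*, 0.056 for *Rpl36a*, 0.0566 for *Rpl21* and 0.107 for *Rps15a* (edgeR), and *Rpl14* and *Rps10*, named after their values were seen, were called instead. The log2 fold changes in that fit were 0.14 for *Rpl10*, 0.20 for *Rpl36a*, 0.17 for *Rpl21* and 0.17 for *Rps15a*. Over all 14 alternatives the adjusted p ranged from 6.17e-07 to 0.412 for *Rpl10*, 0.00083 to 0.387 for *Rpl36a*, 7.57e-09 to 0.493 for *Rpl21* and 2.67e-05 to 0.513 for *Rps15a*.

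Over the whole set, differences were small. The median log2 fold change of the 80 tested members was 0.05 (range -0.07 to 0.27), beside 0.00 over all genes tested. It was over 0 for 71 of 80 members and for 50% of all genes. The median was 0.05 for the 48 large subunit members, of which 3 were called, and 0.07 for the 32 small subunit members, of which 1 was called. The 95% interval lay within a 1.2-fold change in both directions for 73 of the 80 members. Both si-*Itgb6* libraries were over both si-NC libraries for 38 members, where 23.8% of all genes were, and under both for 3 members (among them *Rpl10a* and *Rpl18*, named after their values were seen), where 25.4% of all genes were.

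**Figure D4:**
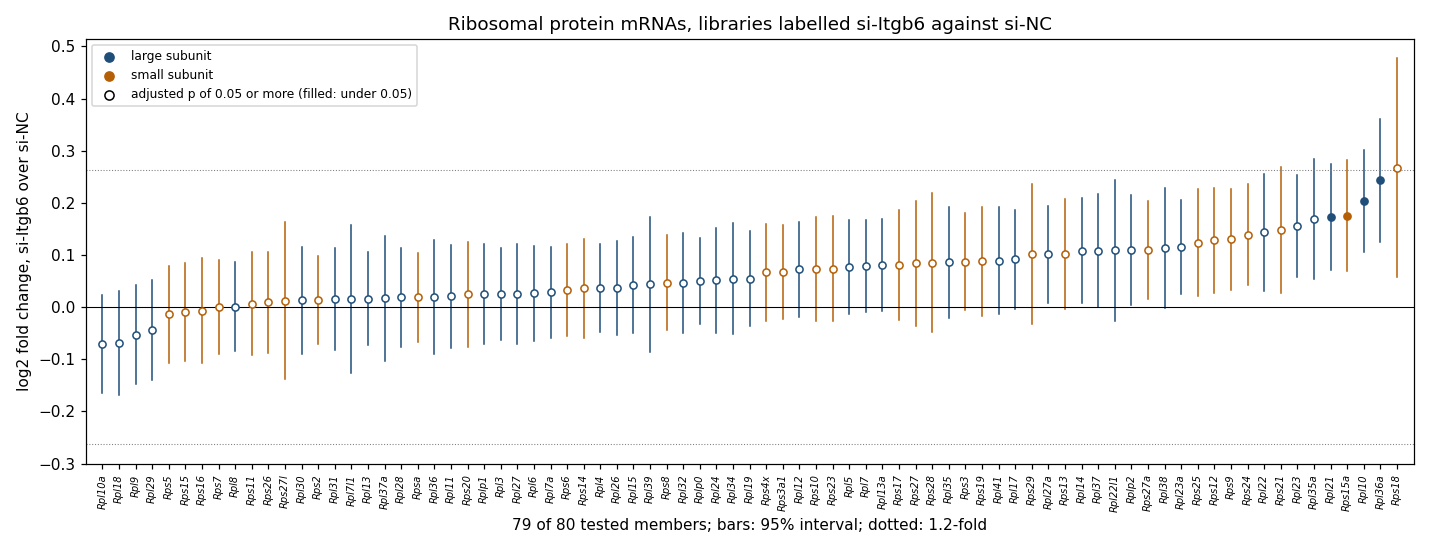
Log2 fold change of the libraries labelled si-*Itgb6* over si-NC for 79 of the 80 tested members, with 95% intervals and dotted lines at a 1.2-fold change; filled points have an adjusted p under 0.05. Points run from -0.07 (*Rpl10a*) to 0.27 (*Rps18*), 71 lie over 0, and the 4 filled points are *Rpl21*, *Rps15a*, *Rpl10* and *Rpl36a*.

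The members' shift was carried by 1 library. In si-*Itgb6* replicate 3, 77 of 80 members were over si-NC replicate 2 (median log2 ratio 0.10) and 73 were over si-NC replicate 3 (median 0.09). In si-*Itgb6* replicate 1, 53 of 80 were over si-NC replicate 2 (median 0.01) and 43 were over si-NC replicate 3 (median 0.00). Within the si-*Itgb6* group, replicate 3 was over replicate 1 for 76 of 80 members with a median of 0.09, about as far as from the controls. Within the si-NC group the median between replicates was 0.02. The chi-square per gene between the replicates' counts was 2.89 for members in si-NC and 6.53 in si-*Itgb6*, against 3.21 and 4.04 over all genes. It compares libraries with counting error only and grows with the count, so members and all genes are not on a like scale. The median over members was 0.01 without si-*Itgb6* replicate 3 and 0.10 without replicate 1. The share of counts in members was 7.77% ± 0.0406 (SD, n = 2) in si-NC and 7.98% ± 0.25 (SD, n = 2) in si-*Itgb6* (exact permutation test, two-sided, p = 0.33, the smallest this design allows).

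**Figure D5:**
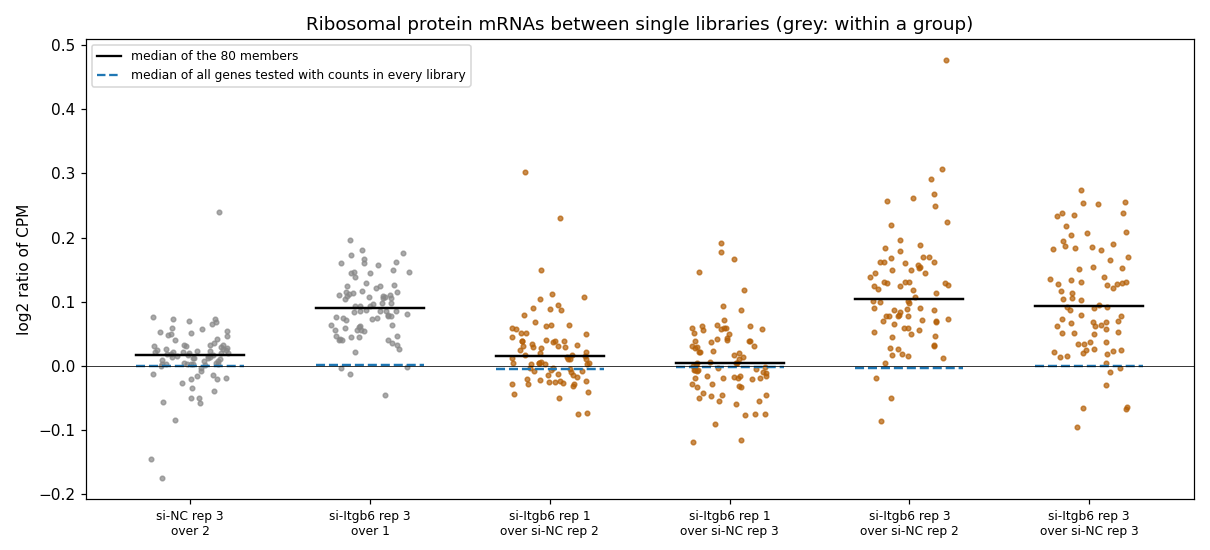
Log2 ratio of CPM between single libraries for the 80 tested members (points), with the members' median (black) and the median of all genes tested with counts in every library (dashed). The median is 0.09 between the si-*Itgb6* replicates, 0.09 and 0.10 for replicate 3 over the controls, and 0.00 and 0.01 for replicate 1 over the controls.

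GC content moved with the fold changes. The Spearman correlation across genes of the GC content of the longest transcript with the log2 fold change was -0.36 over 11709 genes and -0.27 over the 80 members. These are descriptions, since genes share libraries and are not independent replicates. Members had a median GC content of 50.9% and all genes tested 49.8%. After removal of the trends with GC content and length, the members' median was 0.07, beside 0.02 over all genes in that fit. In the main fit these medians were 0.05 and 0.00. The part of GC content in single genes' calls was not tested beyond that fit.

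By role, none of the members with functions of their own passed the test. The P-stalk proteins *Rplp0*, *Rplp1* and *Rplp2* had log2 fold changes of 0.05 (SE 0.04), 0.02 (SE 0.05) and 0.11 (SE 0.05), with adjusted p of 0.55, 0.826 and 0.251 (edgeR). *Rplp2* had 331 and 339 CPM in si-NC and 353 and 371 CPM in si-*Itgb6*, with no overlap between the groups. *Rpl5* and *Rpl11*, which form the 5S RNP with 5S rRNA, had 1643 and 1647 against 1672 and 1799 CPM, and 670 and 674 against 658 and 704 CPM. Their log2 fold changes were 0.08 (SE 0.04) and 0.02 (SE 0.05), and the groups overlapped for *Rpl11*.

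*Rps6*, the substrate of the S6 kinases downstream of mTOR, had 1665 and 1651 CPM in si-NC and 1649 and 1743 CPM in si-*Itgb6*, with a log2 fold change of 0.03 (SE 0.04). *Rps19*, a small subunit protein mutated in Diamond-Blackfan anaemia, had 394 and 397 against 405 and 436 CPM, a log2 fold change of 0.09 (SE 0.05, adjusted p = 0.374, edgeR). *Rpsa*, which is also known as a laminin receptor, had 2116 and 2146 against 2135 and 2184 CPM, a log2 fold change of 0.02 (95% interval -0.07 to 0.10). *Rps27a*, made as a fusion with ubiquitin, had 1065 and 1060 against 1104 and 1188 CPM, a log2 fold change of 0.11 (SE 0.05, unadjusted p = 0.0241, adjusted p = 0.184, edgeR). Its exons overlap those of *Clhc1*, and the libraries carry no strand information.

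Of the members of the paralog pairs chosen to be named, only *Rpl10*, described above, was called. The called member *Rpl36a* was not in these pairs, and *Rpl36al* lies outside the symbol rule. *Rpl22* had 222 and 220 CPM in si-NC and 238 and 249 CPM in si-*Itgb6* (log2 fold change 0.14, SE 0.05, adjusted p = 0.134, edgeR). *Rpl22l1* had 134 and 127 against 132 and 149 CPM, so its groups overlapped. The log2 fold changes were 0.03 for *Rpl3*, 0.08 for *Rpl7*, 0.02 for *Rpl7l1*, 0.04 for *Rpl39*, 0.08 for *Rps27*, 0.01 for *Rps27l* and 0.07 for *Rps4x*, the X-linked form of S4. Of the most abundant members, *Rpl23a* had a log2 fold change of 0.12 (SE 0.04, adjusted p = 0.133, edgeR), *Rps24* of 0.14 (SE 0.05, adjusted p = 0.0897, edgeR), *Rpl26* of 0.04 and *Rps2* of 0.01.

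The members' promoters were read from RefSeq windows of 300 bases (GRCm38.p6), which were given for 63 members in 75 windows. The ETS-type word CCGGAAGT, searched on both strands, was in 16% of these windows and in 3.89% of all 32851 windows. The YY1-type word AAGATGGC was in 10.7% and 2.75%, and TATAAA in 9.33% and 13.6%. These words were more or less frequent by description only, and a match is no evidence of binding. Among the called members, windows were given for *Rpl36a*, *Rps15a* and *Rpl10*, shown here from 100 bases before to 10 after the start, with a match to one of the 3 words in capitals:
*Rpl36a* (chrX:134585554-134585663, plus strand): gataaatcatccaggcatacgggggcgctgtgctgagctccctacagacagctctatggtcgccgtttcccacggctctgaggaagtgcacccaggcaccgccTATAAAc
*Rps15a* (chr7:118116138-118116247, minus strand): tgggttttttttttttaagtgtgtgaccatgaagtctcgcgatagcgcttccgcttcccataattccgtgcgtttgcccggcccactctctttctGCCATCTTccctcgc
*Rpl10* (chrX:74270716-74270825, plus strand): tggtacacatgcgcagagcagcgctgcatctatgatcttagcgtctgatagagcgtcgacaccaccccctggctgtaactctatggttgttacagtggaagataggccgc

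The 3 called members with a window shared none of these words with each other. *Rps15a* shows a run of pyrimidines around its start with the YY1-type word on the opposite strand, and the *Rpl10* stretch holds none of the 3 words. Among GENCODE transcripts, 10 of the 80 members (12.5%) began with C and at least 4 pyrimidines, beside 2.25% of 11613 other genes. The median log2 fold change was 0.04 for these 10 members and 0.06 for the other 70. The annotated start may lie some bases from the start used in these cells.

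Genes that make or use ribosomes were described by 11 lists, with 169 tested genes counted once. Of these, 8 were called higher and 3 lower, and the median log2 fold change was 0.06. Over all genes tested, 2.11% were called higher and 2.52% lower, and the median was 0.00. At an unadjusted p under 0.05 (edgeR), 30 of the 169 were higher and 13 lower, where 8.8% and 9.62% of all genes were. The log2 fold change was over 0 for 111 of the 169 and for 50% of all genes. The shares over all genes are the background for each list below. Of the 4 tested ribosomal protein genes outside the symbol rule (such as *Rack1*, *Fau* and *Rpl36al*), 0 were called in either direction and 1 had an unadjusted p under 0.05 (edgeR), and their median was 0.01. *Rack1*, a 40S scaffold protein, had 2662 and 2699 CPM in si-NC and 2720 and 2785 CPM in si-*Itgb6*.

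Among TOP and growth regulators, 1 of 19 was called lower and 0 higher, with a median of -0.05. That gene was *Larp1*, whose protein binds TOP mRNAs, with 160 and 135 CPM in si-NC and 116 and 110 CPM in si-*Itgb6*. This was a log2 fold change of -0.38 (SE 0.07, adjusted p = 0.00099, edgeR), and it was called in 12 of 14 alternatives, with adjusted p from 1.37e-06 to 0.322. It was not called without si-NC replicate 2, the library with its highest level, where the log2 fold change was -0.26.

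Among 8 other mRNAs with a TOP tract, 8 had a log2 fold change over 0, where 50% of all genes tested did. Their median was 0.10, and 2 were called higher. *Npm1*, a nucleolar chaperone of ribosome assembly that was also in the snoRNP and nucleolar list, had 4382 and 4281 CPM in si-NC and 4713 and 5320 CPM in si-*Itgb6* (log2 fold change 0.21, SE 0.05, adjusted p = 0.00379, edgeR). *Hnrnpa1*, an RNA-binding splicing factor, had 1329 and 1318 against 1445 and 1598 CPM (log2 fold change 0.20, SE 0.05, adjusted p = 0.00867, edgeR). As in the members, si-*Itgb6* replicate 3 had the highest level of both genes, and without it the log2 fold changes were 0.12 and 0.13. *Npm1* and *Hnrnpa1* were each called in 10 of 14 alternatives.

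Among 18 snoRNP and nucleolar proteins 2 were called higher and 0 lower, with a median of 0.09. Beside *Npm1* this was *Ncl*, nucleolin, at 1479 and 1468 against 1540 and 1764 CPM (log2 fold change 0.16, SE 0.05, adjusted p = 0.0482, edgeR). *Ncl* was called in 5 of 14 alternatives, and its log2 fold change was 0.07 without si-*Itgb6* replicate 3 and 0.26 without replicate 1. Of 28 small subunit assembly factors only *Utp15*, of the UTP-A complex that starts pre-rRNA processing, was called, at 36.4 and 35.7 against 43.9 and 44.9 CPM. Its log2 fold change was 0.30 (SE 0.09, adjusted p = 0.0485, edgeR), and the list's median was 0.08. *Utp15* was called in 5 of 14 alternatives, with log2 fold changes from 0.26 to 0.32. Of 34 large subunit assembly factors 0 were called in either direction, with a median of 0.08. At an unadjusted p under 0.05 (edgeR) 3 were lower and 6 higher, where 9.62% and 8.8% of all genes were. Of 14 genes of RNA polymerase I and its factors only *Taf1d* was called, at 121 and 120 against 139 and 153 CPM (log2 fold change 0.28, SE 0.06, adjusted p = 0.00875, edgeR). *Taf1d* was called in 9 of 14 alternatives, with log2 fold changes from 0.21 to 0.34.

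Of 29 translation initiation factors 3 were called higher and 2 lower, with a median of 0.05. *Eif5*, which triggers GTP hydrolysis at start codon recognition, had 436 and 471 against 522 and 553 CPM (log2 fold change 0.24, SE 0.05, adjusted p = 0.00334, edgeR). *Eif2s2*, the β subunit of eIF2, had a log2 fold change of 0.18 (SE 0.05) and *Eif5b*, which joins the subunits, of 0.21 (SE 0.05). The scaffold genes *Eif4g1* and *Eif4g3* fell, from 491 and 434 to 393 and 417 CPM and from 95.2 and 75.4 to 69.5 and 70.1 CPM, with log2 fold changes of -0.19 (adjusted p = 0.0355) and -0.29 (adjusted p = 0.0433, edgeR). Both were highest in si-NC replicate 2, and without that library the log2 fold changes were -0.10 and -0.11 and neither was called. *Eif4g1* was called in 10 and *Eif4g3* in 7 of 14 alternatives, and without si-NC replicate 3 the value of *Eif4g3* was -0.45. Of 7 elongation factors 0 were called, with 1 lower and 1 higher at an unadjusted p under 0.05 (edgeR), and the median was 0.07. Of 8 genes of the p53 response to ribosome stress 0 were called in either direction and 0 had an unadjusted p under 0.05 (edgeR), with a median of -0.04. Of the snoRNA host genes only *Snhg4* was tested, at 1.84 and 3.3 against 1.1 and 1.09 CPM, and it was not called (adjusted p = 0.0838, edgeR). With GC and length trends removed, *Larp1* and *Eif5* were the 2 genes of these lists still called. The number of genes called over these lists changed with the library left out, and so did the number over all genes tested.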

How the data were processed

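RNA-sequencing of polyadenylated RNA, in pairs and without strand, was analysed in 4 libraries. The authors deposited estimated counts per gene, not normalized, and FPKM values made from them. The aligner, counting tool and build are not given in the sources used here. The study states that samples were optimized after clustering. Estimated counts were rounded, filtered (filterByExpr, minimum count 10, minimum total 15), scaled with TMM factors and compared by quasi-likelihood F tests (edgeR 4.0.16, R 4.3.3), with Benjamini-Hochberg adjustment over 11727 genes. Single genes left out by name, also from 2 plots, are not reported here. Standard errors came from the F statistic. The study's thresholds (p under 0.05, fold change over 1.2) were a second call rule. DESeq2 1.42.0 and limma 3.58.1 on log2(FPKM + 1) were alternatives, and the test was checked on simulated counts. Coordinates, transcripts and overlaps came from GENCODE vM21 (GRCm38, 99.6% of identifiers found) and promoters from RefSeq. Reading frames were the longest open frame from ATG.

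Members and lists were chosen with earlier results of these data known. Named were *Itgb6*, members with functions of their own, paralog pairs, the 5 highest and 5 lowest members by FPKM, members called (at most 8 a direction, filled up by the study's thresholds), and per list at most 3 called genes a direction. The sum of members with listed copies was chosen after seeing the data. It took only copies named for the member with -ps and a number. Copies with other names, such as *BC004004* for *Rpl21*, were not added.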

Additional observations from a re-analysis of the deposited data

How the results depend on the processing

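In every one of the 15 alternatives 0 members were called lower. The number called higher was 4, and it was 8 with no filter. It was 5 by DESeq2 and 5 with at least 10 counts in every library. With library size only it was 3, and with pseudogene copies summed 3. It was 2 with GC and length trends removed, 0 on log2(FPKM + 1) with limma and 1 by the study's thresholds. Leaving out 1 library gave 0 to 30 members called higher, 13 to 781 of all genes and 0 to 30 of the related lists, where the lone library is assumed to vary like the other group. All genes called were 542, and 288 by DESeq2, 277 with GC and length trends removed, 0 on log2(FPKM + 1) and 1122 by the study's thresholds. Genes of the related lists called were 11, and 18 with no filter, 2 with GC and length trends removed and 0 on log2(FPKM + 1). The members' median log2 fold change was 0.00905 to 0.105 when 1 library was left out. The difference in share was 0.212 percentage points of counts, 0.43 of FPKM, and 0.0352 to 0.389 when 1 library was left out. Single named genes kept their side of the threshold in 503 of their alternatives, lost a call in 87 and gained one in 9. No paired analysis was possible because the groups share only replicate number 3. With 2 libraries a group, the median SE of a single member was 0.05 on the log2 scale.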
